A study of Mus musculus with 6 samples.

Results

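Mitochondrial ribosomal protein genes were taken as the symbols of the deposited count table that start with Mrpl or Mrps followed by a digit, leaving out pseudogene names that end in -ps and a number. The rule found 79 of 25075 symbols, 50 named for the large subunit (Mrpl) and 29 for the small subunit (Mrps). A filter on low counts was passed by 78 of them (49 large, 29 small). The exception was Mrpl48-ps, a single-exon processed pseudogene that the wording of the rule keeps, with 2 counts in 1 library and none in the others. Mrpl23-ps1 and Mrps36-ps1 are left out by the rule.

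Mitochondria translate the few proteins encoded by their own DNA, core subunits of the respiratory chain and of ATP synthase, on a ribosome of their own. Its rRNAs are transcribed from mitochondrial DNA, whereas all of its proteins are encoded in the nucleus, made in the cytosol and imported. Part of these proteins have counterparts in bacterial ribosomes and the others were added in mitochondria. Activated lymphocytes are known to build more mitochondria.

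Smart-seq2, which amplifies whole transcripts from few cells, was used on RNA of sorted group 3 innate lymphoid cells (ILC3s) of mouse small intestine, which make IL-22 and IL-17. Each sample held 2000 Lin-CD90.2+KLRG1- cells, of which 2 ng of RNA was used. Both groups are on a B6 background and carry floxed Batf alleles: 3 libraries are labelled control (Batffl/flPLZF-Cre-) and 3 are labelled Batf-deficient (Batffl/flPLZF-Cre+), where Cre is named for PLZF, a transcription factor of innate lymphoid precursors and of some innate-like T cells. Batf encodes an AP-1 family transcription factor. The series design calls the 3 samples of a group biological replicates, and the labels used here are silent on the age, sex, litter and pooling of the mice.

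Several facts of the libraries bear on every value below. Batf was 2.44-fold higher, not lower, in the libraries labelled Batf-deficient (16.5 ± 2.13 against 40.3 ± 1.77 CPM, SD, n = 3 each), and lower with another scaling described below (log2 -0.96). The targeted gene thus runs counter to the labels, which are used here as names only. The table does not resolve exons. All 13 ILC3 markers were detected in both groups, at a summed 0.161 to 0.183% of the counts in the controls and 0.970 to 1.03% in the others. Of 15 exocrine pancreas markers all were lower in the libraries labelled Batf-deficient (10.2 to 10.5% of the counts against 0.00799 to 0.00989%, with Pnliprp1 at 0 there), as were 17 of 18 epithelial markers (1.59 to 1.69% against 0.0425 to 0.0514%) and 8 of 10 plasma and B cell markers (1.45 to 1.47% against 0.116 to 0.127%). Lower too were 9 of 10 macrophage and dendritic markers (0.09685 to 0.109% against 0.00575 to 0.00644%), and 8 of 10 stromal and endothelial markers (0.119 to 0.128% against 0.0112 to 0.0142%). Of 10 T cell markers 8 were higher with the main scaling (0.0366 to 0.0389% against 0.196 to 0.209%). These other cell types also contain mitochondria, and the part of these cells in the differences below was not tested. In bulk RNA, fewer cells of a type and less RNA per cell cannot be told apart.

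The mitochondrial ribosomal protein genes took a smaller part of the libraries labelled Batf-deficient. Summed over the members, the share of all counts was 0.368, 0.395 and 0.390% in the controls and 0.174, 0.180 and 0.188% in the Batf-deficient libraries, by replicate. The groups did not overlap, and the mean was 2.13-fold higher in the control libraries. Behind these shares stood 33376 to 67628 counts per control library and 14632 to 25540 per Batf-deficient library, with a median of 158 to 782.5 counts per member. Smart-seq2 has no molecular identifiers, so these counts are reads, not molecules.

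**Figure D1:**
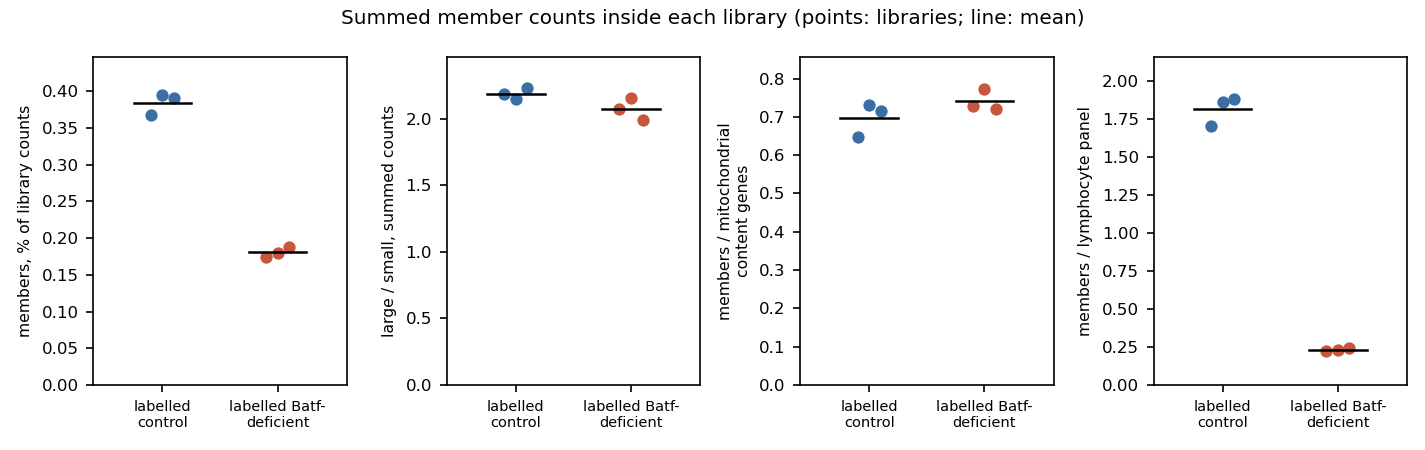
Summed counts of the members in each of the 6 libraries (points; the line is the group mean), as a percent of all counts, as large over small subunit counts, over the counts of 20 mitochondrial content genes, and over the counts of 19 lymphocyte genes. The share and the ratio to lymphocyte genes separate the groups, while the ratios of the subunits and to mitochondrial content genes overlap.

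Gene by gene, with libraries scaled by TMM (trimmed mean of M values, which sets the bulk of genes to no change), 56 of 78 members were lower and 1, Mrpl13, was higher in the libraries labelled Batf-deficient by edgeR's quasi-likelihood test (adjusted p under 0.05). Over all 15261 genes tested, 34.1% were lower and 30.2% higher, so the members' 71.8% lower is above the background. The median log2 fold change, labelled Batf-deficient over labelled control, was -0.70 for the members and 0.02 for all genes, and 72 of the 78 members had a negative value, as did 49.5% of all genes. In 61 members every Batf-deficient library was below every control library, and in 3 (Mrpl13, Mrpl24 and Mrpl41) above, where 36.5% and 34.6% of all genes separated this way. A decrease of at least 2-fold that passed the test was found for 21 members (26.9%, against a background also of 26.9%), so the share of members with strong decreases equalled that of all genes.

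**Figure D2:**
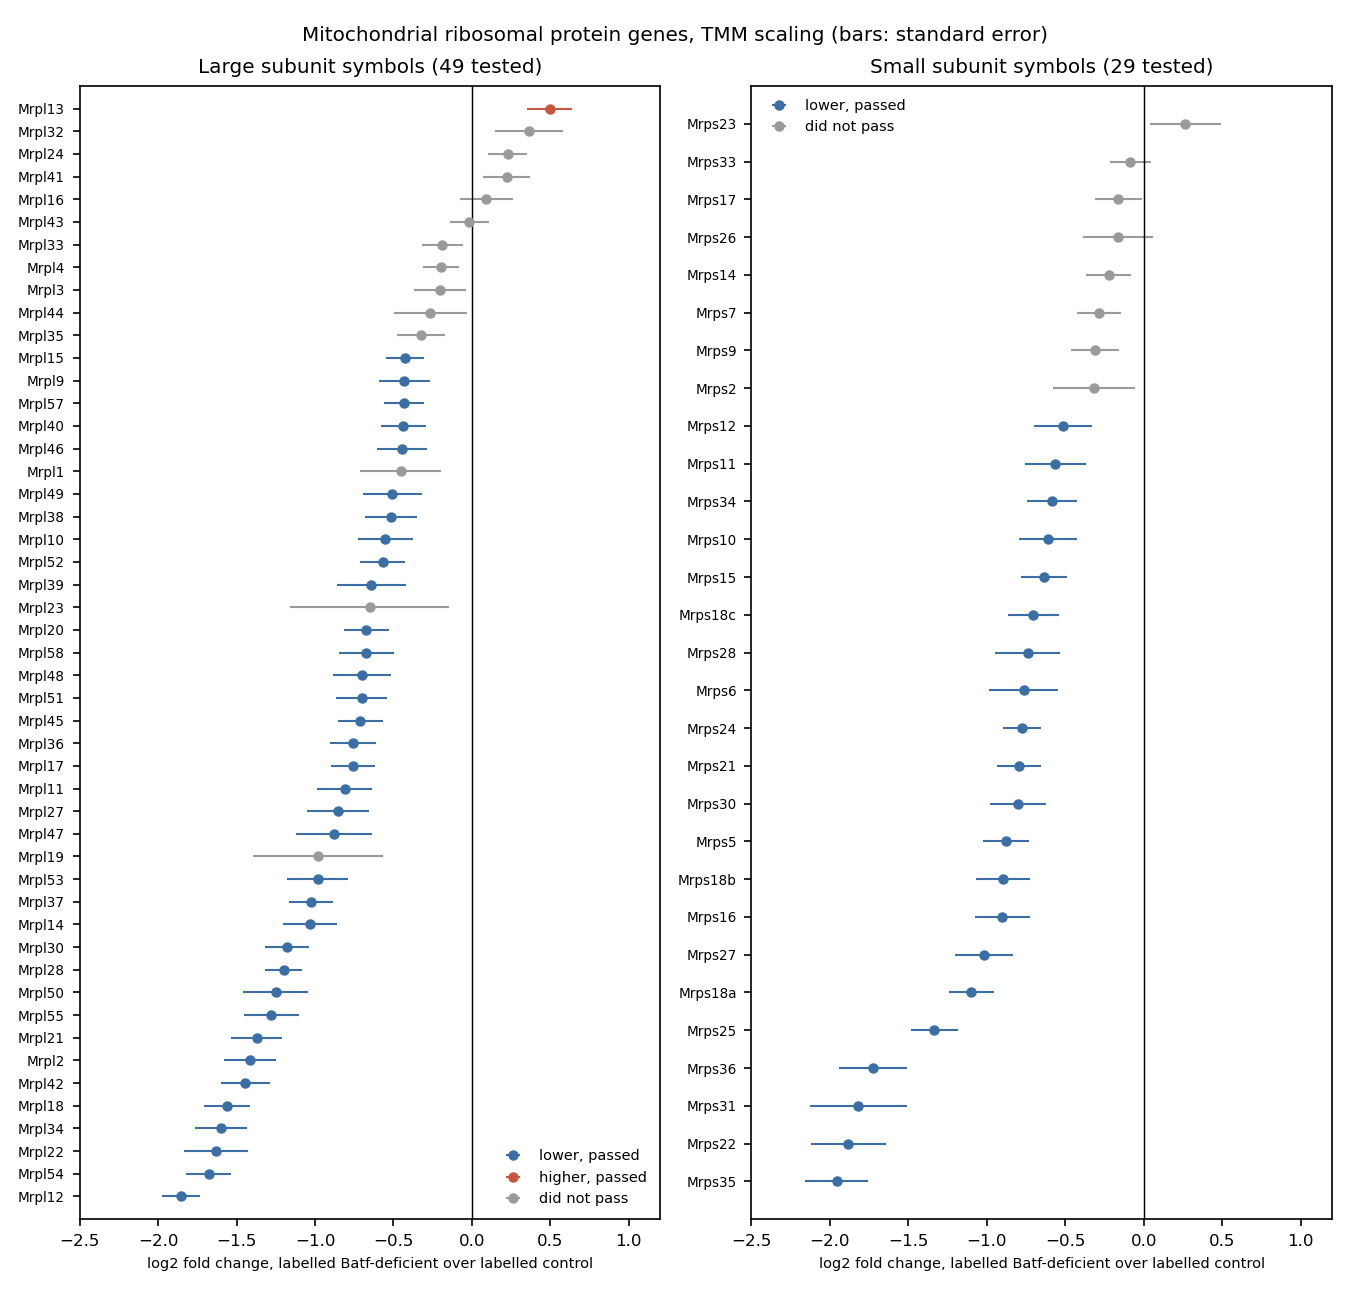
Log2 fold change of each tested member with its standard error, large subunit symbols left (49) and small subunit symbols right (29); blue points were lower and the red point higher at an adjusted p of 0.05, and grey points did not pass. Values run from -1.96 (Mrps35) to 0.50 (Mrpl13).

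How many members were called depends on the scaling. With library totals alone, 71 members were lower and none higher (background 42.5% and 20%), with a median of -1.08. Scaled on 19 genes common to innate lymphocytes and T lymphocytes (the lymphocyte panel), all 78 were lower (background 84.8% lower and 2.37% higher), with a median of -2.95 against -2.23 for all genes. A change of scaling shifts all genes by nearly the same amount, so the distance of the members' median from that of all genes is about the same under each and is no separate support. The direction of Mrpl13 changed, from 0.50 with TMM to -1.75 with the panel (adjusted p = 8.97e-08 by edgeR).

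**Figure D3:**
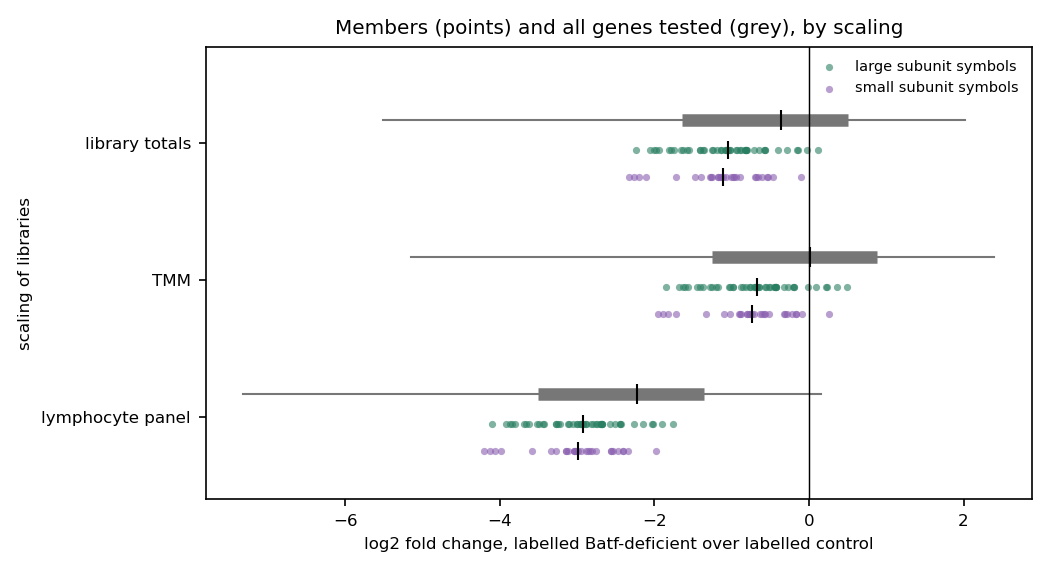
Log2 fold change of the members (points, large and small subunit symbols) under 3 scalings, with the range of all 15261 genes tested in grey (thin line, percentiles 5 to 95; thick line, percentiles 25 to 75) and medians as black ticks. The member medians of -1.08, -0.70 and -2.95 shift together with the all-gene medians of -0.36, 0.02 and -2.23.

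The subunits had a similar share of lower genes. Of the large subunit symbols 35 of 49 were lower and 1 higher (median -0.67), and of the small subunit symbols 21 of 29 were lower (median -0.74). These are 71.4% and 72.4% lower, beside 34.1% of all genes. Inside each library, which needs no scaling, the ratio of large to small subunit counts was 2.19, 2.15 and 2.23 in the controls and 2.07, 2.15 and 1.99 in the Batf-deficient libraries, and the groups overlapped through replicate 2 of each. The mean log2 ratio differed by -0.08, and by -0.01 once the most abundant member of each subunit, Mrpl19 and Mrps14, was left out. With mean log2 values in place of sums it turned to 0.052. The symbols do not follow the structure in all cases: Mrps30 and Mrps18a encode proteins of the large subunit, and Mrps36 encodes a subunit of the 2-oxoglutarate dehydrogenase complex. Grouped by protein, the difference was -0.14 and the groups did not overlap (lowest control 1.31, highest Batf-deficient 1.25 on the log2 scale). No test was made of a ratio summed over members.

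The strongest decreases among the small subunit symbols were of genes without a bacterial counterpart. Of the 13 small subunit symbols of this kind, 10 were lower, 7 of them at least 2-fold, with a median of -1.02, whereas 11 of the 16 with a bacterial counterpart were lower and none at least 2-fold (median -0.62, lowest -0.90). Leaving out Mrps30, Mrps18a and Mrps36, 7 of 10 were lower and 5 at least 2-fold. Mrps18a and Mrps18b, paralogues of the bacterial-type Mrps18c, were counted here as lacking a counterpart. The large subunit did not show this order: 10 of 30 with a bacterial counterpart and 4 of 19 without one were lower by at least 2-fold, with medians of -0.76 and -0.64. Over all genes tested, 34.1% were lower and 26.9% were lower by at least 2-fold. The 2-fold counts of the large subunit classes lie on either side of that second share. The difference between these classes was not tested.

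Mrps35, a mitochondria-specific small subunit protein, showed the largest decrease. It stood at 33.8, 46.5 and 32.4 CPM in the controls and 8.45, 10.4 and 10.1 CPM in the Batf-deficient libraries, 3.88-fold lower in the latter (log2 -1.96, SE 0.20, edgeR adjusted p = 3.43e-06). The groups lay far apart, with no Batf-deficient library near the lowest control library. Mrps22, which is mutated in a human mitochondrial disease, followed at 22.1, 25.4 and 20.1 against 4.99, 7.96 and 5.47 CPM (log2 -1.88, SE 0.24, edgeR adjusted p = 2.45e-05). Mrps31 had 18.1, 22.5 and 11.6 against 6.24, 3.69 and 4.83 CPM (log2 -1.82, SE 0.31, edgeR adjusted p = 0.000269), with control libraries that were more spread relative to their mean. Mrps36, of the dehydrogenase complex, went from 41.7, 45.9 and 41.6 to 16.4, 14.6 and 8.69 CPM (log2 -1.72, SE 0.22, edgeR adjusted p = 2.22e-05). The groups did not overlap in these 4 genes, which the rule for naming the largest changes required.

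Among large subunit genes Mrpl12 fell furthest. It encodes the protein of the flexible stalk, which recruits translation factors, and is also known to bind the mitochondrial RNA polymerase. Mrpl12 (ENSMUSG00000039640) lies at chr11:120484613-120489065 on the plus strand of mm10, with 5 exons. It read 138, 130 and 111 CPM in the controls and 32.8, 35.1 and 36.6 CPM in the Batf-deficient libraries, 3.62-fold lower (log2 -1.85, SE 0.12, edgeR adjusted p = 7.35e-08). Its share of the member counts went from 3.76 to 1.69%. The stalk base genes Mrpl10 and Mrpl11 were also lower, by less: log2 -0.55 (SE 0.17, adjusted p = 0.0156) and -0.81 (SE 0.17, adjusted p = 0.00149). Mrpl54 was lower too, from 59.2, 60.2 and 63.9 to 16.8, 18.2 and 21.97 CPM (log2 -1.68, SE 0.14, edgeR adjusted p = 8.06e-07).

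Mrpl13, a large subunit protein with a bacterial counterpart, was the member called higher. It read 28.9, 32.3 and 39.1 CPM in the controls and 49.6, 47.0 and 45.2 CPM in the Batf-deficient libraries. The level was 1.41-fold higher (log2 0.50, SE 0.15, edgeR adjusted p = 0.0102), without overlap, which its naming as a largest change also required. The call was lost without Batf-deficient replicate 1 (adjusted p = 0.0790), without replicate 2 (0.0507) and when these replicates, which resembled each other most, were averaged (0.0599), and with library totals the value was 0.12 (0.499). Mrpl13 shares 330 exon bases with Mtbp on the other strand, which held 162 counts over the 6 libraries.

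**Figure D4:**
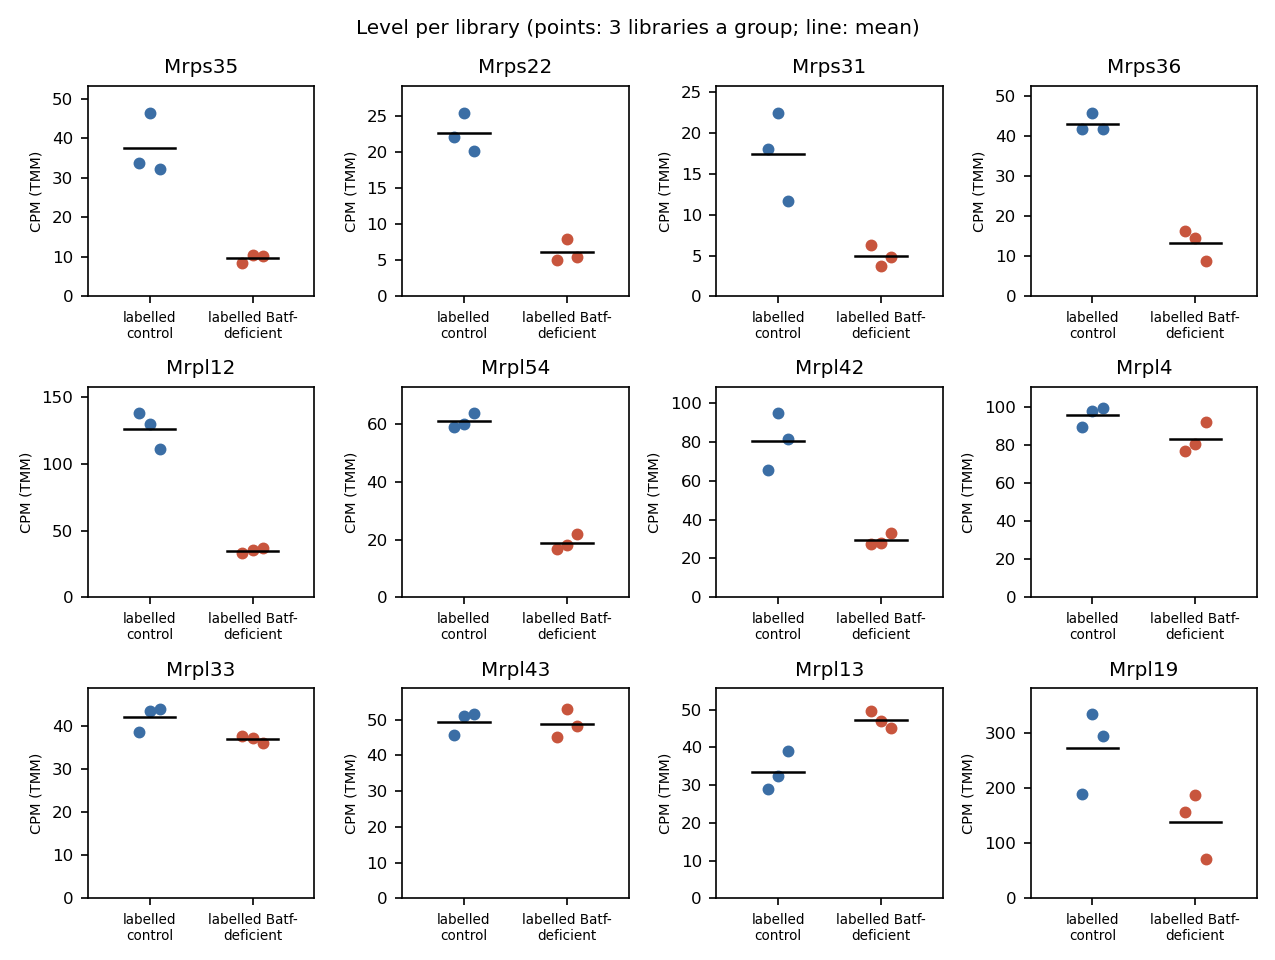
Level of 12 members in each library (points, CPM with TMM scaling, axes from 0; the line is the mean of 3 libraries), labelled control in blue and labelled Batf-deficient in red. Mrps35, Mrps22, Mrps31, Mrps36, Mrpl12, Mrpl54 and Mrpl42 separate downwards, Mrpl13 upwards, and Mrpl4 and Mrpl43 overlap.

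Several members with known roles were lower by intermediate amounts. Mrpl45, near the exit of the peptide tunnel where the ribosome meets the inner membrane, fell from 46.6 ± 6.26 to 28.4 ± 1.45 CPM (SD, n = 3; log2 -0.71). Mrpl58, a peptidyl-tRNA hydrolase that rescues stalled ribosomes, had a log2 fold change of -0.67, and Mrpl57 one of -0.43. Mrps16 (-0.90) and Mrps27 (-1.02), an RNA-binding pentatricopeptide repeat protein, were lower in the small subunit, and adjusted p-values of these 5 by edgeR ran from 0.000464 to 0.0116, with the call of Mrpl57 lost without Batf-deficient replicate 1 (0.0585). Mrps12, of the decoding centre, passed (log2 -0.51, edgeR adjusted p = 0.0298) although control replicate 1 (26.6 CPM) lay below Batf-deficient replicate 3 (27.6 CPM), and the call was lost without control replicate 2 (adjusted p = 0.111), without control replicate 3 (0.0877) and without Batf-deficient replicate 1 (0.0648) or 2 (0.0714), as well as with these averaged (0.0666), with upper quartile factors (0.0683) and by limma voom (0.0542). Mrpl3 and Mrpl44, mutated in human cardiomyopathies with mitochondrial translation defects, did not pass (log2 -0.20 and -0.26, edgeR adjusted p = 0.306 and 0.337). Both were called lower with library totals (log2 -0.58 and -0.64, edgeR adjusted p = 0.0105 and 0.0334) and with panel scaling.

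The paralogues Mrps18a, Mrps18b and Mrps18c, which take different places on the ribosome, were all lower. Mrps18a was at 43.2, 40.8 and 45.9 CPM in the controls and 19.5, 18.8 and 22.1 CPM in the others (log2 -1.10, SE 0.14). Mrps18b (log2 -0.89, SE 0.17) and Mrps18c (log2 -0.70, SE 0.16) were lower by less, and the standard errors of neighbours in this order overlap. Mrps30, also a large subunit protein in spite of its symbol, had a log2 fold change of -0.80. All 4 passed the test, without overlap between the groups.

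Per kilobase of transcript, the highest large subunit levels in the mean over all 6 libraries were those of Mrpl52, Mrpl33, Mrpl42, Mrpl4 and Mrpl54. Within a group other members ranked above some of these, such as Mrpl12 (95.96 CPM per kilobase) in the controls and Mrpl24 (44.7) in the Batf-deficient libraries. In the control libraries these were 114 ± 10.02, 88.1 ± 6.30, 121 ± 22.3, 74.3 ± 4.02 and 101 ± 4.11 CPM per kilobase (SD, n = 3), and in the Batf-deficient libraries 76.8 ± 9.66, 77.5 ± 1.89, 44.4 ± 4.90, 64.7 ± 6.25 and 31.4 ± 4.45. The order thus differed between the groups: Mrpl42 and Mrpl54 were among the 3 highest of these 5 in the controls and the 2 lowest in the others, where Mrpl52 and Mrpl33 did not differ beyond their spread. In the small subunit Mrps21, Mrps15, Mrps24, Mrps18c and Mrps12 led in the same mean. In the controls, though, Mrps36 ranked next after Mrps21. In the Batf-deficient libraries Mrps17 (38.5 CPM per kilobase) and Mrps33 (37.8) ranked above the other 4. The rank of Mrps17 rests on a transcript of 832 bases, where its longest has 5061. With the longest transcripts its mean over all 6 libraries went from 40.8 to 6.72 CPM per kilobase. Of the 10 members that led in the mean over all libraries, 8 also led with the longest transcripts. Mrps21 was at 102 ± 5.37 CPM per kilobase in the control and 58.6 ± 6.56 in the Batf-deficient libraries. Mrps15 and Mrps24 were at 57.1 ± 8.91 and 55.4 ± 1.077 in the control libraries, within their spread. Mrps21, Mrps15 and Mrps24 were all lower, by log2 -0.79, -0.63 and -0.77.

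Some members did not pass the test with TMM scaling. Mrpl43, singled out after its values were seen, read 45.6, 50.9 and 51.6 against 45.2, 53.1 and 48.4 CPM (log2 -0.02, SE 0.12, edgeR adjusted p = 0.915). Mrpl4, at the wall of the peptide tunnel, read 89.8, 97.8 and 99.4 against 76.9, 80.9 and 92.4 CPM (log2 -0.20, SE 0.11, edgeR adjusted p = 0.145), and passed without Batf-deficient replicate 3 (0.0206). Both had overlapping groups with TMM scaling. Both were called lower with library totals (log2 -0.39 and -0.57, edgeR adjusted p = 0.0179 and 0.00119) and with panel scaling (log2 -2.26 and -2.44). Mrpl19 was the most abundant member by counts (8.001% of the member counts in the control libraries). It read 190, 334 and 295 CPM in the controls and 157, 187 and 71.7 CPM in the others, with replicate 3 lowest. The groups did not overlap, but Mrpl19 did not pass with TMM scaling (log2 -0.98, SE 0.41, edgeR adjusted p = 0.0895). With library totals it was called lower (log2 -1.37, edgeR adjusted p = 0.0284), as with panel scaling (log2 -3.25). Its exons share 1962 bases with Gcfc2 on the other strand, a gene with 68 counts in all. Over the 78 members the log2 fold change had a Spearman correlation of 0.16 with transcript length, -0.12 with GC content and 0.08 with mean level. Fold change and mean level come from the same 6 libraries, and length and GC content from annotated transcripts.

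When libraries were scaled on the summed member counts, a scaling chosen after the data were seen, 18 members were lower and 16 higher than the members as a whole at an adjusted p of 0.05 by edgeR (all genes 23.2% and 50.8%). The share lower is about that of all genes and the share higher is below it. This scaling centres the members near their own sum (median 0.02, against 0.73 for all genes). The comparison with all genes thus follows from its construction and is no separate result. The lower ones included Mrps35 (log2 -1.24), Mrps22 (-1.18), Mrpl12 (-1.15) and Mrpl54 (-0.97). The higher ones included Mrpl13 (1.21), Mrpl32 (1.07), Mrps23 (0.99), Mrpl24 (0.94) and Mrpl43 (0.70). Levels in the groups still ran in a similar order, with a Spearman correlation of 0.73 over 78 members between the mean CPM of the groups, which holds differences in length common to both.

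**Figure D5:**
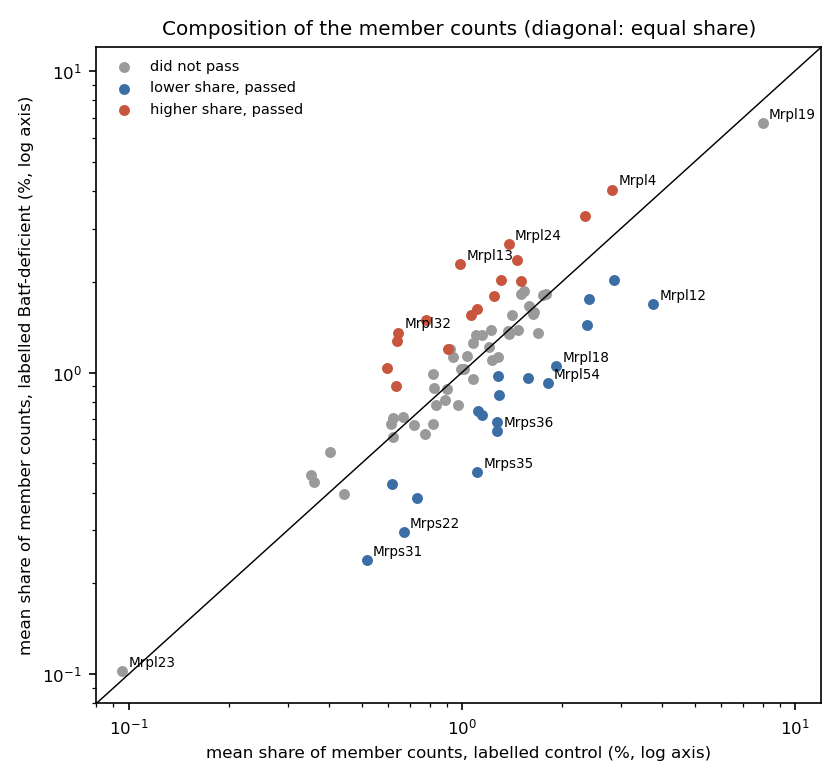
Mean share of each of the 78 tested members in the summed member counts, labelled control on the x axis and labelled Batf-deficient on the y axis (both log axes, percent; the diagonal is equal share). Coloured points had a higher (16) or lower (18) share at an adjusted p of 0.05, and Mrpl12 moved from 3.76 to 1.69% and Mrpl13 from 0.987 to 2.29%.

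Near-identical copies limit the value of some members. Of the 78, 25 have a pseudogene that matches them over at least 200 bases at 90% identity or more, and 33 share exon bases with another gene. Among the 31 with neither, 23 were lower (74.2%, against 34.1% of all genes) and none higher, with a median of -0.64. The 25 include Mrpl12 and Mrps36, which are among the largest decreases. Mrpl12 matches Gm15770 at 94.0% over 597 bases, a copy without a row of counts. Mrps36 has several copies, such as Mrps36-ps1, at 99.3% over 306 bases with 23 counts in all. Mrpl23, a protein of the peptide tunnel exit, is the extreme case: Mrpl23-ps1 is identical to it over 540 bases and held 92.0 to 97.2% of their joint counts. Mrpl23 alone read 1.41, 4.47 and 3.999 against 1.80, 2.27 and 2.25 CPM and did not pass (log2 -0.65, edgeR adjusted p = 0.279). With its copy added the pair read 51.3, 56.0 and 67.8 against 39.4, 40.2 and 45.4 CPM, lower without overlap (log2 -0.49, SE 0.14, edgeR adjusted p = 0.00918).

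Mrps33 has a copy, Gm5776, that matches its coding sequence over 321 bases with 1 substitution, G171A, counted from 1 at the first coding base of Mrps33. The 41 bases around it are shown with the substituted base in capitals, since a read that lies within the 321 matched bases and does not cross this base cannot be told between the genes.

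Mrps33: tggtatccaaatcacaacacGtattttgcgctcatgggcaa
Gm5776: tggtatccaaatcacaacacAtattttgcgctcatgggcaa

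Mrps33 read 43.1, 47.5 and 42.4 against 46.0, 38.8 and 40.6 CPM (log2 -0.09, SE 0.13, edgeR adjusted p = 0.580), with overlapping groups. With library totals it was called lower (log2 -0.47, edgeR adjusted p = 0.00944), as with panel scaling (log2 -2.33). Gm5776 read 9.33, 6.41 and 6.80 against 3.74, 3.84 and 5.55 CPM (log2 -0.76, edgeR adjusted p = 0.0611).

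Genes that share a regulator may carry its motif near their start, and promoters of 69 members were found in a RefSeq table on GRCm38.p6 (250 bases before to 50 after the start). The ETS motif CCGGAAG, bound by GABP, was present on either strand in 34.8% of them, against 9.1% of 27025 promoters of the same length. The NRF1 motif GCATGCG was in 11.6% against 3.6%, the YY1 motif AAGATGG in 18.8% against 6.5% and the SP1 motif GGGCGGG in 42.0% against 25.8%. The E-box CACGTG (7.2% in both) and CCAAT (39.1% against 37.9%) were as frequent as in all promoters. None of these motifs contains another. For members the window nearest the GENCODE gene start was taken, and for other genes the first listed one. The member window lay 17016 bases from that start for Mrpl33, 7979 for Mrps24, 3185 for Mrpl35 and 2496 for Mrpl36. The 27025 promoters were not limited to genes tested here. Members lower in the libraries labelled Batf-deficient held the ETS motif in 36.0% of 50 promoters and the other members in 31.6% of 19. A match is a description of letters, not a site of binding.

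The promoters below are those of 2 members with large decreases, Mrps22, with an ETS and an SP1 match, and Mrpl12, with no match to any of the 6 motifs, and of Mrpl37, chosen after its letters were seen because it holds 4 of the 6. They run 5′ to 3′ along the gene, at chr9:98601630-98601929 (minus strand), chr11:120484387-120484686 (plus strand) and chr4:107066817-107067116 (minus strand), with matches in capitals.

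Mrps22: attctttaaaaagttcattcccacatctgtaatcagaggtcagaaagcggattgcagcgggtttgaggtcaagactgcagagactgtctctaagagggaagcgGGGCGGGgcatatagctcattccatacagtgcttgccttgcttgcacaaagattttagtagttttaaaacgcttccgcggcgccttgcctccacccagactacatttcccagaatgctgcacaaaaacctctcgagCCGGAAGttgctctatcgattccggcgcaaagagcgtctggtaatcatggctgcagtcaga
Mrpl12: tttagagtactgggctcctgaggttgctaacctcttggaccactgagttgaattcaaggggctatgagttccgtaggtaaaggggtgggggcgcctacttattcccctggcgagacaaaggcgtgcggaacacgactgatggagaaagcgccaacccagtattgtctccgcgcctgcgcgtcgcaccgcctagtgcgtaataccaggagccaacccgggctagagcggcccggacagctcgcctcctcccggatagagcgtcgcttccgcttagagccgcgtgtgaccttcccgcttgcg
Mrpl37: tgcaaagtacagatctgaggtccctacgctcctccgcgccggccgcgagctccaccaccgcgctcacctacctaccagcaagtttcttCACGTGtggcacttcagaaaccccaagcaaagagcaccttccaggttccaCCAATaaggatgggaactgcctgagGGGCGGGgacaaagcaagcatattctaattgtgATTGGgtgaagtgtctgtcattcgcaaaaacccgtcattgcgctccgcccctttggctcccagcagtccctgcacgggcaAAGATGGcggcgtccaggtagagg

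Mrps22 was 3.69-fold and Mrpl12 3.62-fold lower. Mrps31 and Mrps36, also among the largest decreases and not shown, held a CCAAT match, and Mrps36 an SP1 match as well. Whether any motif bears on the decreases was not tested. Mrpl37, a mitochondria-specific large subunit protein, was 2.04-fold lower (log2 -1.03, SE 0.14, edgeR adjusted p = 5.02e-05). Of the regulators themselves, Gabpb1, the partner subunit of GABP, was higher in the libraries labelled Batf-deficient (44.6 ± 8.29 against 114 ± 3.92 CPM, log2 1.35) and Nrf1 was higher by less (log2 0.40, edgeR adjusted p = 0.0376), whereas Gabpa (0.19) and Yy1 (0.12) did not pass (edgeR adjusted p = 0.453 and 0.547). Esrra, a nuclear receptor that drives mitochondrial genes, was lower, from 30.1 ± 8.35 to 5.11 ± 0.633 CPM. Over the 12 regulators 2 were higher and 5 lower (41.7%, near the 34.1% of all genes, of which 30.2% were higher). Their log2 fold changes ran from -5.88 to 1.35, with a median of -0.03. With panel scaling Gabpb1 turned to -0.89 and Nrf1 to -1.85.

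The rRNAs that these proteins bind are also in the table. The small subunit rRNA gene mt-Rnr1 read 1090, 1547 and 1169 CPM in the controls and 1097, 1205 and 576 CPM in the Batf-deficient libraries, with overlap (log2 -0.40, edgeR adjusted p = 0.267). The large subunit rRNA gene mt-Rnr2 read 9591, 13349 and 11555 against 31921, 35016 and 19287 CPM, higher without overlap (log2 1.32, SE 0.23, edgeR adjusted p = 0.00199), and turned to -0.94 with panel scaling. Reads of mt-Rnr2 and of most large subunit protein genes thus moved in opposite directions with TMM scaling. In the controls mt-Rnr2 had a mean of 11498 CPM, against 1269 CPM for mt-Rnr1. The means in the Batf-deficient libraries were 28741 and 959 CPM. Whether reads of these genes measure the levels of the rRNAs was not tested.

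Other genes of mitochondrial translation are given with TMM scaling, beside the 34.1% of all genes that were lower. Of 5 ribosome proteins with other symbols 4 were lower (median -0.70), among them Dap3, the GTP-binding protein of the small subunit (log2 -0.70), and Chchd1 (-0.81). Of 18 translation factors 7 were lower (38.9%, near the share of all genes) and 1 higher (median -0.54). The elongation factors Tufm, Tsfm and Gfm1 were lower, with Tufm at 147, 122 and 162 against 66.7, 67.8 and 76.7 CPM (log2 -1.03, SE 0.13, edgeR adjusted p = 1.78e-05). Guf1, the elongation factor 4 homologue, was the one higher (log2 1.25), and turned to -1.01 with panel scaling. The 28 tested genes of ribosome assembly and rRNA modification split, with 7 lower (25%, below the share of all genes) and 6 higher (median 0.04), where 27 were lower with the panel. Ddx28, a helicase of large subunit assembly, was higher (4.97 ± 1.32 against 24.6 ± 2.47 CPM) and Afg3l2, the protease that processes Mrpl32, lower (log2 -0.94).

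Of 22 mitochondrial aminoacyl-tRNA synthetase genes 9 were lower (40.9%, near the share of all genes) and 1, Lars2, higher (median -0.47). Lars2 read 825, 837 and 1041 against 6115, 5880 and 6737 CPM (log2 2.79, SE 0.11, edgeR adjusted p = 7.70e-10), higher also with panel scaling (0.55), and counts per gene do not show where in Lars2 the reads lie. Of 26 genes of mitochondrial transcription and RNA handling 8 were lower (30.8%, near the share of all genes) and 2 higher (median -0.36). As single genes, Lrpprc and its partner Slirp, which stabilise mitochondrial mRNAs, were lower by log2 -1.13 and -1.64. With panel scaling the medians of these 5 lists lay between -2.95 and -2.20.

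Genes of mitochondrial content were a list of 20, such as the outer membrane channel Vdac1 (log2 -1.80), the citric acid cycle enzyme Mdh2 (-1.79) and the ADP/ATP carrier Slc25a5 (-1.19). They were lower in 15 cases (75%, against 34.1% of all genes) and higher in 1. Their median was -0.86, beside -0.70 for the ribosomal protein genes. Inside the libraries the ratio of summed member counts to the counts of these genes was 0.647, 0.732 and 0.714 in the controls and 0.729, 0.772 and 0.721 in the Batf-deficient libraries, with overlap. Against the 19 lymphocyte genes the ratio was 1.70, 1.86 and 1.88 in the controls and 0.223, 0.231 and 0.245 in the others, 7.79-fold apart. The lymphocyte genes themselves took 0.207 to 0.216% of the counts in the controls and 0.767 to 0.779% in the others. With TMM scaling 18 of the 19 were higher, so this ratio holds their higher share as well as the members' lower share. The ribosomal protein genes were therefore lower relative to lymphocyte genes and to all counts. Their ratio to the 20 mitochondrial content genes did not separate the groups, and ratios to the other mitochondrial lists were not taken.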

How the data were processed

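RNA of 6 mouse samples, 3 labelled control and 3 labelled Batf-deficient by their titles and genotypes, was measured by Smart-seq2 per the labels' protocols. The authors deposited raw counts per gene symbol, in 1 table, with mm10 as the build per the submitters' processing notes. Which aligner, counter and strand setting were used is not given in the sources used here. Reads of overlapping, antisense and near-identical genes may therefore be misassigned. Library totals ranged from 8228513 to 17334207, where 3 counts are worth 0.173 to 0.365 CPM, and counting precision covers counting error only.

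In edgeR 4.0.16 (R 4.3.3), filterByExpr with a minimum count of 10 left 15261 genes, libraries were scaled by TMM, and glmQLFit (robust) with glmQLFTest, two-sided, was fitted with group as the only term. Benjamini-Hochberg adjustment ran over these 15261 genes, and an adjusted p under 0.05 was called. CPM rest on TMM-scaled totals and shares of counts on plain totals. Fold changes in the text are labelled Batf-deficient over labelled control, and SE is that of the log2 fold change. Alternatives were library totals, upper quartile factors, the lymphocyte panel, DESeq2 1.42.0, limma voom 3.58.1, no filter, a replicate block, averaging Batf-deficient replicates 1 and 2, and leaving out each library. The test was tried on simulated data before use. Positions, exons and transcript lengths (principal transcript) are from GENCODE M21, and promoters from RefSeq.

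The members, lists, panel and motifs were chosen with earlier results of these data known. Named members were those past the threshold with the largest changes (6 per direction at most, a mean log2 CPM from 3 upwards, groups not overlapping), the 5 highest per length in each subunit, 16 of known role and any not tested; from other lists at most 4 with the lowest p were eligible. Mrpl10, Mrpl19, Mrpl23, Mrpl24, Mrpl32, Mrpl37, Mrpl41, Mrpl43, Mrps14, Mrps17, Mrps23, Mrps33, Nrf1, Gabpa and Yy1 were singled out after their values were seen. Taken over members of 20 counts or more, Batf-deficient replicates 1 and 2 had a mean chi-square of 1.48, where 1 is sampling noise, against 7.09 to 16.1 for other pairs within a group. They were counted as separate samples.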

Additional observations from a re-analysis of the deposited data

How the results depend on the processing

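Members lower numbered 50 to 71 under every alternative except the lymphocyte panel, where all 78 were, and the direction of 26 of the 27 named members held under every alternative. The counts that moved were those of members higher, which were 0 with library totals, 2 with upper quartile factors, 0 with the lymphocyte panel, 0 with Batf-deficient replicates 1 and 2 averaged and 0 to 2 without a library; the member median, -1.08 with library totals and -2.95 with the panel; and over all genes those higher, 3048 with library totals and 361 with the panel, and those lower, 12941 with the panel. Mrpl13 reversed to -1.75 with the panel. The log2 difference of the large to small ratio was 0.052 with mean log2 values in place of sums, a reversal, -0.0089 without the most abundant member of each subunit and -0.11 to -0.050 without a library. The cause of these shifts was not tested beyond the construction of each scaling.

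Same-numbered libraries of the groups did not deviate together (correlations 0.004, 0.021 and 0.030), so the numbers were not taken as pairs. With a replicate block 54 members were lower and the member median was -0.68. Relative to the summed members, 15 to 18 were lower and 12 to 18 higher without a library.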
